A study of Rattus norvegicus with 18 samples.

Results

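The genes described here encode the subunits of the 5 complexes of oxidative phosphorylation, here in hypothalamic tissue from male Wistar rats, 18 in number and 9 weeks old, each measured on a 1-colour array of its own. Members were the genes on the array whose rat symbol is that of an NADH dehydrogenase subunit (Nduf followed by a, b, c, s or v, without the Ndufaf assembly factors), a succinate dehydrogenase subunit (Sdha to Sdhd), a ubiquinol-cytochrome c reductase subunit (Uqcr), a cytochrome oxidase subunit (Cox4 to Cox8) or a part of the ATP synthase (Atp5). This rule found 81 of 16665 named genes, and 80 of them were bright enough to be tested, among 13052 tested genes. Rats of the control group (n = 6) were not restrained and were given no running wheel. Stress rats (n = 6) underwent 3 weeks of restraint, for 1 to 1.5 h on 5 days of each week. The third group (n = 6), called exercised here, had the same restraint and could run in a wheel at will for 4 weeks, the first of them before the restraint began. No group had a wheel without restraint, so wheel running was measured only on top of restraint. The 80 tested members were 33 genes of complex I, 4 of complex II, 8 of complex III, 16 of complex IV, 17 of complex V and the pair Ndufa4 and Ndufa4l2, kept apart because Ndufa4 was first assigned to complex I and is now counted as a subunit of complex IV.

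Complexes I to IV form the respiratory chain of the inner mitochondrial membrane. Complex I takes electrons from NADH and complex II from succinate, both pass them to ubiquinone, complex III hands them on to cytochrome c and complex IV to oxygen. The proton gradient built on the way drives complex V, the ATP synthase. In the brain this chain supplies most of the ATP that neurons spend on ion pumping and synaptic transmission. All members here are nuclear, and 1 of them, Cox6c-ps1, is by its symbol a pseudogene. The proteins of the others are imported and joined with subunits encoded by mitochondrial DNA. Many members are known targets of the transcription factors NRF1, GABPA and YY1.

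Sequences upstream of the transcription start are shown for some members that changed in the comparisons below and for some that carry those factors' motifs. RefSeq promoter windows of assembly GRCr8, from 250 bases before to 50 bases after the start, were matched for 71 of the 81 members. Cox4i2 and Cox6c-ps1, which are among the members that moved most, had no window. The motifs searched on both strands were CCGGAAG for GABPA and other ETS factors, GCGCATG for NRF1, AAGATGG for YY1, GGGCGG for the GC box and TATAAA for the TATA box. None of them contains another, and the forms for NRF1 and YY1 were chosen after longer ones had been counted in the same windows. In the 6 windows below only the 250 bases before the start are printed, 5′ to 3′ on the gene's strand, with matches to the GABPA, NRF1 and YY1 motifs on either strand in capitals.
Cox7c, chr2:18579171-18579420, minus strand: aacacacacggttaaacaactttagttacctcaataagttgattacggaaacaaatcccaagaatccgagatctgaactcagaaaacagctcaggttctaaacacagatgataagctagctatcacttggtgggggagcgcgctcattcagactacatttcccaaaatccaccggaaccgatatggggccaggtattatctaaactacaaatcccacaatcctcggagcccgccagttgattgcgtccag
Cox6b2, chr1:78122621-78122870, plus strand: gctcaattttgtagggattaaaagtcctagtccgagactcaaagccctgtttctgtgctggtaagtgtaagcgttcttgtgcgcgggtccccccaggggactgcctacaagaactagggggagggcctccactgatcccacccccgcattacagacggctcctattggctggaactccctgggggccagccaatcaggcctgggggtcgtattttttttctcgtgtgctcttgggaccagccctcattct
Atp5f1d, chr7:10214351-10214600, minus strand: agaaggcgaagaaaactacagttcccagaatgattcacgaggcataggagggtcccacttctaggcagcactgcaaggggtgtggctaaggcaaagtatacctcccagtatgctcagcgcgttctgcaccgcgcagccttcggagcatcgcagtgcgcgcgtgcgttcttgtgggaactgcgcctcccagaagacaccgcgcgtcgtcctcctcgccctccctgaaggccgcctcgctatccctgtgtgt
Cox8a, chr1:213833624-213833873, minus strand: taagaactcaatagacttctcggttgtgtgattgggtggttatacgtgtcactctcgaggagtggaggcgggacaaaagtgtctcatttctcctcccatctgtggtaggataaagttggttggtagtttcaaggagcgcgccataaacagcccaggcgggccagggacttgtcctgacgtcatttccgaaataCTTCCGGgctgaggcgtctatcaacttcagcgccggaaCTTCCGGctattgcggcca
Atp5me, chr14:1464610-1464859, plus strand: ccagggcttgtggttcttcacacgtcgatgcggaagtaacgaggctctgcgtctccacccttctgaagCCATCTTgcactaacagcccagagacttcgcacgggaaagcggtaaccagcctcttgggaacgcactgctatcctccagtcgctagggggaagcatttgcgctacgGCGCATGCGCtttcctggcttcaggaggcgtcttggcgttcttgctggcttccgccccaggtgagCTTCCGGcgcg
Ndufa11, chr9:1637364-1637613, plus strand: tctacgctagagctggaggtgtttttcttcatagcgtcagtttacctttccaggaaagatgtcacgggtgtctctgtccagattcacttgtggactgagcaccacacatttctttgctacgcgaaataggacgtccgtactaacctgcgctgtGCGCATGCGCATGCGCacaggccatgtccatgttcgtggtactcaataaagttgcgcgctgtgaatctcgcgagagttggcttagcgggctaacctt

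The GABPA motif was found in 29.6% of the members' windows (21 of 71) against 9.22% of all 27457 windows. The NRF1 motif was in 16.9% against 3.94% and the YY1 motif in 23.9% against 7.30%. The GC box was about as frequent among members (40.8%) as among all windows (34.9%), and the TATA box was in 8.45% against 14.3%. The members' windows were also somewhat richer in G and C, with a median of 56.3% against 52.3%. In the printed bases Cox8a, a small subunit of complex IV, held the GABPA motif at 2 places, Atp5me of complex V the motifs of all 3 factors, and Ndufa11 of complex I the NRF1 motif at 4 overlapping places on the 2 strands, since it reads in part the same on both. Cox6b2, which fell in a comparison below, and Atp5f1d, which rose, held none of the 5 motifs in the whole window. Cox7c, which fell, held none before the start and the YY1 motif after it. Other members that changed in exercised rats against control were of both kinds. Atp5mc1, Atp5mc3, Ndufa4 and Ndufv1 held none of the 5 motifs. Ndufb7 held the GABPA motif and the GC box, Ndufs7 the YY1 motif, and Sdhc the YY1 motif and the GC box. Uqcrc1 held the motifs of NRF1 and YY1, and Atp5mg those of GABPA and NRF1 and the TATA box. Atp5pb and Cox5a held only the GC box. Whether motifs and changes go together was not tested. A match is a stretch of letters and not a measured binding site. The factors themselves did not pass in any of the 3 comparisons: in exercised rats against control Nrf1 differed by 0.15, Gabpa by -0.04 and Yy1 by 0.03 on the log2 scale.

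Levels are log2 intensities relative to each array's 75th percentile, so that 0 is that percentile, a difference of 1 is a doubling, and levels of different genes cannot be set against each other. A gene is represented by its brightest tested probe. It counts as changed at an adjusted p under 0.05 over all 31299 tested probes (limma, Benjamini-Hochberg). The p-values rest on the spread of rats within the groups, whatever its source. Of the array's probes, 63.6% to 77.8% were well above background on each array, arrays correlated with each other at 0.983 to 0.995 over tested probes, and no spot was saturated. Markers of the hypothalamus were bright in all rats: the summed level of 8 of them was 453 to 577 times the 75th percentile. The arrays lay on 5 slides. They were scanned on 2 days, day 1 with slides 2 and 4 and day 2 with slides 1, 3 and 5. Slides 1 to 3 carried all control rats and stress rats 1 to 4, and slides 4 and 5 carried stress rats 5 and 6 and all exercised rats. The slide set, that is slides 1 to 3 against slides 4 and 5, could be compared within the stress group, where 4 rats lay on slide 3 and 2 on slide 4, and no slide held both control and stress rats. Within stress the slides were also the scan days, slide 3 on day 2 and slide 4 on day 1, so slide set and scan day cannot be told apart there. Each side of that comparison was 1 slide, so it held no replicate slides. Where group was the only term of a fit, the spread within stress included this split between slides. In tissue RNA, a lower level in each cell and fewer cells of the type that holds the transcript cannot be told apart.

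Restraint alone moved no subunit gene past the test. Of 80 members 0 changed between stress and control, against 0% of all tested genes, with a lowest adjusted p of 0.356 among the members. An unadjusted p under 0.05 (limma) was seen in 6 of the 80 members and in 1595 of 13052 tested genes. The median difference was 0.01 over the members and 0.02 over all tested genes. For 74 of 80 members the 95% interval of the difference lay within -0.3 to 0.3, against 68.5% of all tested genes, and all 33 members of complex I, 4 of complex II, 8 of complex III and 17 of complex V were among them. The 6 members with small p-values were Cox6c-ps1 (-0.23), Cox7c (-0.40), Atp5mc3 (0.13), Cox4i2 (-0.42), Ndufs7 (0.07) and Sdhc (-0.10). These 6 were closer to control when only slides 1 to 3 were used, with 6 control and 4 stress rats: Cox6c-ps1 then differed by -0.06, Cox7c by -0.08, Atp5mc3 by 0.05, Cox4i2 by -0.06, Ndufs7 by 0.04 and Sdhc by -0.05. With both stress rats of slide 4 and 4 control rats, all scanned on day 1, 9 members passed, 3 higher and 6 lower, against 10.6% of all tested genes.

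Exercised rats differed from control in at least 1 subunit gene of each complex, and the 4 largest differences lay in complex IV. Of 80 members 18 changed (22.5%), against 28% of all tested genes, so the share was near the background. Of these 9 rose, where 18.1% of all tested genes rose, and 9 fell, where 9.84% of all tested genes fell. The median difference was 0.03 for the members and 0.05 for all tested genes. Without scaling to the 75th percentile 0 rose and 10 fell, against 12.9% of all tested genes called, so the 9 rises depended on the scaling. Of complex I 3 of 33 rose and 1 fell, of complex II 1 of 4 fell and of complex III 1 of 8 rose. Of complex IV 5 of 16 fell, the pseudogene Cox6c-ps1 among them, and 0 rose. Of complex V 5 of 17 rose and 1 fell, and Ndufa4 fell. With quantile normalization 23 of 80 members changed (28.75%), against 29.7% of all tested genes, so this share too was near the background. Of the 13052 genes 2606 were then higher and 1269 lower. The split was 3 rises and 4 falls in complex I and 3 rises and 5 falls in complex IV. It was 5 rises and 1 fall in complex V. A difference beyond 0.3 in either direction was seen in 5 members, against 14.1% of all tested genes, and all 5 were lower, among them Cox4i2, Cox7c, Cox6c-ps1 and Cox6b2.

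**Figure D1:**
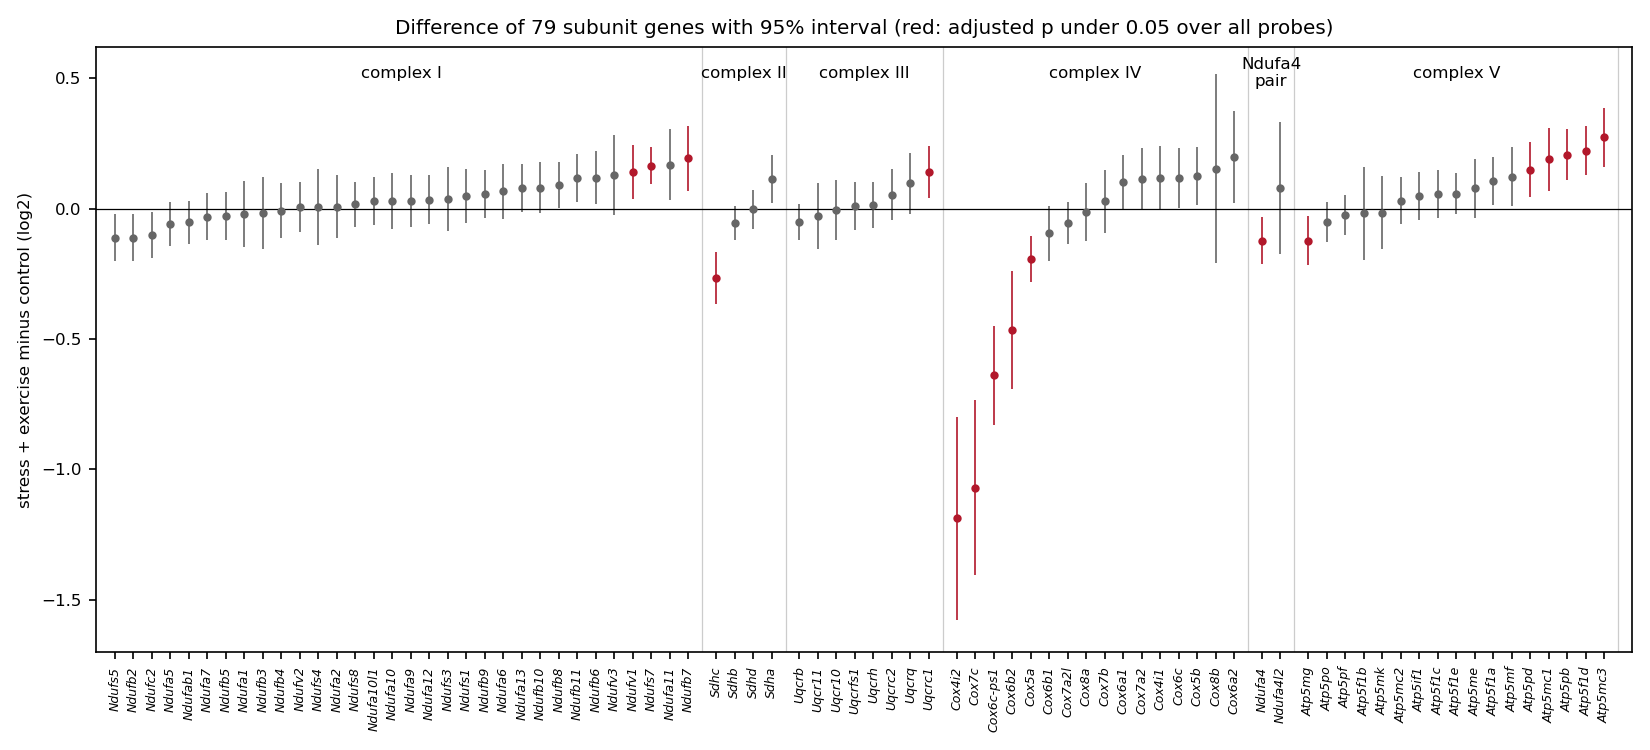
Difference between exercised and control rats (log2) for 79 of the tested members, by complex and ordered by size, with 95% intervals from the fit over all probes. Red marks the 17 of them with an adjusted p under 0.05; most points lie within 0.2 of 0, and the lowest are Cox4i2 at -1.19 and Cox7c at -1.07.

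Exercised rats against stress rats gave fewer calls. Of 80 members 4 changed (5%), 1 higher and 3 lower, against 3.27% of all tested genes, 1.6% higher and 1.67% lower. Cox4i2 fell by 0.76 (SE 0.18), Cox7c fell by 0.67 (SE 0.16), Cox6c-ps1 fell by 0.41 (SE 0.09) and Atp5f1d rose by 0.19 (SE 0.04), with adjusted p between 0.0385 and 0.0400. Without scaling 0 rose and 3 fell, against 2.84% of all tested genes called. Within slides 4 and 5 (2 stress and 6 exercised rats) 0 members passed, against 0% of all tested genes. There 3 of 80 members and 853 of 13052 tested genes had an unadjusted p under 0.05 (limma). Cox4i2, Cox7c, Cox6c-ps1 and Atp5f1d differed by -0.03, -0.04, -0.07 and 0.09 within these slides. Without stress rat 5 11 members passed, against 14.5% of all tested genes, and without stress rat 6 11 passed, against 13.4%. Without both 26 did, 18 higher and 8 lower, against 26.5% of all tested genes. Leaving out any of the other 16 rats left 0 or 1.

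The 4 members of complex IV with the largest falls shared a pattern across single rats. Cox4i2 encodes the oxygen-responsive isoform of subunit 4, known mainly from lung and, in the brain, from pericytes. Its level was 2.82, 3.03 and 3.11 in control (lowest, median and highest of 6 rats), 2.85 to 3.09 in stress rats 1 to 4, 1.86 and 1.85 in stress rats 5 and 6, and 1.73, 1.83 and 1.88 in exercised rats. Every rat of slides 1 to 3 was high and every rat of slides 4 and 5 was low, with nothing in between. Exercised rats differed from control by -1.19 (SE 0.18, adjusted p = 0.000639) and stress rats of slide 4 from those of slide 3 by -1.09 (adjusted p = 2.37e-08), a difference between rats that had all been restrained without a wheel.

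Cox7c encodes a small subunit of the oxidase that is present in all tissues. Its level was 3.26, 3.33 and 3.42 in control, 3.21 to 3.31 in stress rats 1 to 4, 2.24 and 2.40 in stress rats 5 and 6, and 2.19, 2.26 and 2.37 in exercised rats. The stress group again fell into a high and a low part, and the 2 low rats lay among the exercised ones or just above them. Exercised rats differed from control by -1.07 (SE 0.16, adjusted p = 0.000581). Stress rats of slide 4 differed from those of slide 3 by -0.94 (adjusted p = 2.96e-08).

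Cox6b2 encodes the form of subunit 6b known from testis. It had a level of 3.43, 3.65 and 3.77 in control, 3.55 to 3.74 in stress rats 1 to 4, 3.05 and 3.07 in stress rats 5 and 6, and 3.12, 3.18 and 3.21 in exercised rats. The 2 stress rats of slide 4 lay below all exercised rats. Exercised rats differed from control by -0.47 (SE 0.11, adjusted p = 0.00457). Cox6c-ps1, by its symbol a pseudogene of Cox6c, was at 3.65, 3.70 and 3.78 in control, 3.54 to 3.72 in stress rats 1 to 4, 3.09 and 3.19 in stress rats 5 and 6, and 3.03, 3.05 and 3.14 in exercised rats, again with no overlap between slide sets. It differed from control by -0.64 (SE 0.09, adjusted p = 0.000581), whereas Cox6c itself differed by 0.12 (adjusted p = 0.118).

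**Figure D2:**
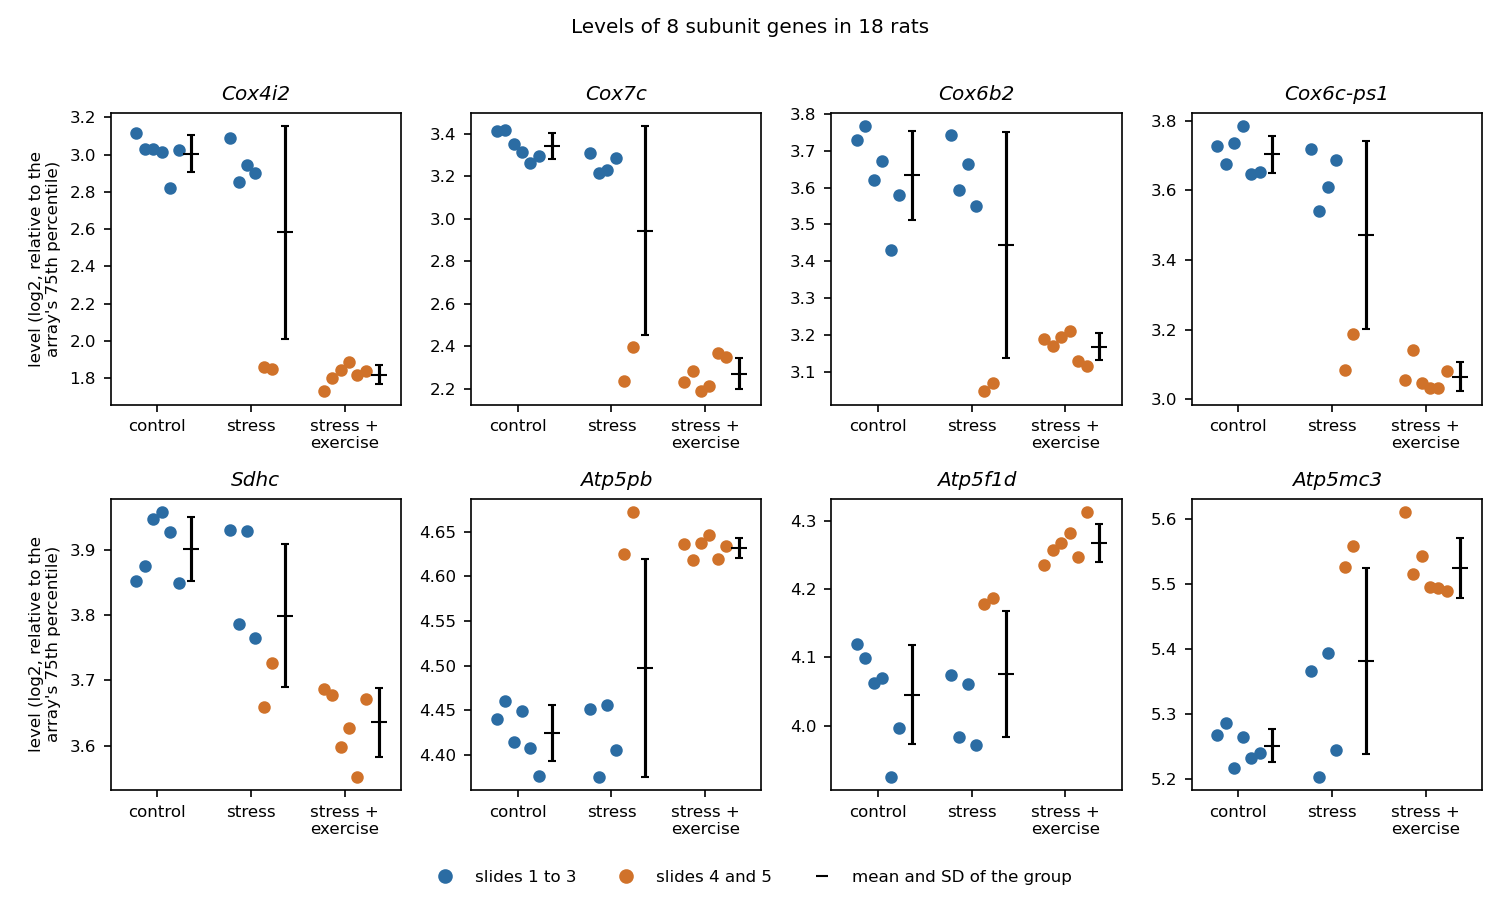
Level (log2, relative to the array's 75th percentile) of 8 subunit genes in every rat, with blue points for slides 1 to 3 and orange points for slides 4 and 5; black marks give the mean and SD of each group of 6. In each panel stress rats 5 and 6 (orange) lie on the side of the exercised rats, at 1.86 and 1.85 for Cox4i2 where the other stress rats lie at 2.85 to 3.09.

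The remaining subunits of complex IV moved little. Cox4i1, the isoform of subunit 4 used in most cells, was at 6.96, 7.20 and 7.30 in control and at 7.21, 7.28 and 7.35 in exercised rats. The groups overlapped, and the difference of 0.12 did not pass (95% interval 0.00 to 0.24, adjusted p = 0.143). Cox5a, which with Cox4 forms part of the core first assembled around the catalytic subunit, was lower: 5.64, 5.76 and 5.80 in control and 5.51, 5.54 and 5.57 in exercised rats, without overlap (difference -0.19, SE 0.04, adjusted p = 0.00318). Stress rats 5 and 6 were at 5.70 and 5.62, inside the range of 5.58 to 5.82 of stress rats 1 to 4, and the slides within stress differed by -0.05 (adjusted p = 0.663). Among the subunits that did not pass were Cox5b (0.13), Cox6a1 (0.10), Cox6b1 (-0.09), Cox7a2 (0.11), Cox7a2l (-0.06), which takes part in joining complexes into supercomplexes, and Cox8a (-0.01). Ndufa4 fell by 0.12 (SE 0.04, adjusted p = 0.0413), with exercised rats at 5.70 to 5.81 and control rats at 5.80 to 5.99, an overlap. Its paralog Ndufa4l2, known as a gene induced by low oxygen, differed by 0.08 (SE 0.12).

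The isoforms of heart and skeletal muscle were not among the genes that fell. Cox6a2 differed from control by 0.20 (SE 0.08, adjusted p = 0.0895) and Cox8b by 0.15 (SE 0.17, adjusted p = 0.548). Of 7 tested markers of striated muscle, however, 4 fell in exercised rats and 0 rose: Acta1 (-1.24), Ckm (-0.95), Mb (-0.64) and Tnni2 (-0.46). Of all tested genes 9.84% fell. The markers did not all go 1 way: 5 differences were negative and 2 positive, the highest 0.55. Between the slides within stress 2 of the 7 were lower on slide 4 and 1 was higher. The summed level of the 7 markers was 1.37 to 1.58 times the 75th percentile on slides 1 to 3. It was 0.956 to 1.10 on slides 4 and 5, so this sum moved with the same rats as Cox4i2, Cox7c and Cox6b2. The part of these transcripts in the subunit results was not tested.

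Markers of mural cells, the pericytes and smooth muscle cells of vessels, were set beside Cox4i2. Of 10 tested markers 1 rose with exercise (Rgs5, 0.31) and 2 fell (Acta2, -0.60, and Notch3, -0.45). Of all tested genes 18.1% rose and 9.84% fell. The other 7 markers did not pass, among them the pericyte markers Pdgfrb (0.05), Kcnj8 (-0.01) and Higd1b (0.06). The summed level of the 10 markers was 6.84 to 7.89 times the 75th percentile in control, 6.12 to 8.24 in stress and 7.37 to 8.55 in exercised rats. These ranges overlapped. Acta2 and Notch3 were also lower between the slides within stress, by -0.99 (adjusted p = 0.00469) and -0.67 (adjusted p = 0.00135), and so moved with the same rats as Cox4i2. Their part in the result on Cox4i2 was not tested.

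Complex V held 5 of the 9 rises, 0 of which passed without scaling. Atp5mc3, one of the genes for the c subunit of the proton-driven ring, was at 5.22, 5.25 and 5.29 in control, 5.20 to 5.39 in stress rats 1 to 4, 5.52 and 5.56 in stress rats 5 and 6, and 5.49, 5.50 and 5.61 in exercised rats. It rose by 0.27 (SE 0.05, adjusted p = 0.00171), and all rats of slides 4 and 5 lay above all rats of slides 1 to 3. Atp5mc1, which encodes the same mature c subunit, rose by 0.19 (SE 0.06, adjusted p = 0.0216), while Atp5mc2 was at 0.03 (adjusted p = 0.646) by its brightest probe. Atp5f1d, the delta subunit of the central stalk, rose by 0.22 (SE 0.04, adjusted p = 0.00192), from 3.92, 4.07 and 4.12 in control to 4.24, 4.26 and 4.31. Stress rats 5 and 6 lay in between at 4.18 and 4.19, above the other 4 stress rats and below every exercised rat.

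The stalk subunits Atp5pb (0.21, adjusted p = 0.00359) and Atp5pd (0.15, adjusted p = 0.0349) rose as well, the latter by its brightest probe, while its other probe fell by 0.12 (adjusted p = 0.0247). For Atp5pb stress rats 5 and 6 were at 4.63 and 4.67, within the range of 4.62 to 4.65 of the exercised rats or just above it, and the other stress rats at 4.38 to 4.46. The catalytic head did not pass: Atp5f1a differed by 0.11 (adjusted p = 0.0835) and Atp5f1b, the catalytic subunit itself, by -0.02 (SE 0.08). Atp5mg, a small membrane subunit, fell by 0.12 (SE 0.04, adjusted p = 0.0479). Atp5if1, the inhibitor that holds the enzyme when the gradient fails, differed by 0.05 (adjusted p = 0.449).

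In complex I Ndufs7, an iron-sulfur subunit of the arm that passes electrons to ubiquinone, rose by 0.17 (SE 0.03, adjusted p = 0.00234). Of the module that oxidizes NADH, Ndufv1 rose by 0.14 (adjusted p = 0.0417), while Ndufs1 (0.05) and Ndufv2 (0.00) did not pass. Ndufb7, of the membrane arm, rose by 0.19 (SE 0.06, adjusted p = 0.0219). The median of all 33 members of complex I was 0.03.

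Complexes II and III moved in 1 gene each. Sdhc, a membrane anchor of complex II, was at 3.85, 3.90 and 3.96 in control, 3.76 to 3.93 in stress rats 1 to 4, 3.73 and 3.66 in stress rats 5 and 6, and 3.55, 3.65 and 3.69 in exercised rats (difference -0.27, SE 0.05, adjusted p = 0.000993). Exercised rats lay below every control rat. Sdhd, the other anchor, differed by 0.00 (SE 0.04), the iron-sulfur subunit Sdhb by -0.05 and the flavoprotein Sdha by 0.11 (adjusted p = 0.0581), and these 3 did not pass. In complex III Uqcrc1, a core protein, rose by 0.14 (SE 0.05, adjusted p = 0.0335), with control at 4.04 to 4.11 and exercised rats at 4.15 to 4.34. Its partner Uqcrc2 (0.05), the Rieske iron-sulfur protein Uqcrfs1 (0.01) and Uqcrb (-0.05) did not pass.

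Stress rats on different slides also differed in subunit genes, at a share near that of all tested genes. Between stress rats of slide 4 and of slide 3, 16 of 80 members passed (20%), 11 higher and 5 lower on slide 4, against 16.5% of all tested genes, 9.65% higher and 6.81% lower. The 5 lower, among them Cox4i2, Cox7c, Cox6b2 and Cox6c-ps1, were the same 5 that differed by more than 0.3 between exercised and control rats. Over all 18 rats 14 members had slide sets that did not overlap, against 11.2% of all tested genes, 4.51% lower and 6.7% higher. Of the members 6 were lower on slides 4 and 5 (among them Cox4i2, Cox7c, Cox6b2, Cox6c-ps1 and Sdhc) and 8 higher (Atp5f1d, Atp5mc3, Atp5pb, Atp5pd, Ndufb11, Ndufb6, Ndufb7 and Ndufs7). Leaving out stress rat 6 left 6 members between the slides, 1 higher and 5 lower, against 7.78% of all tested genes. Slide 4 then held 1 stress rat, which was assumed to vary like the rats of the other groups. Without scaling 5 passed, 1 higher and 4 lower, against 7.36% of all tested genes.

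**Figure D3:**
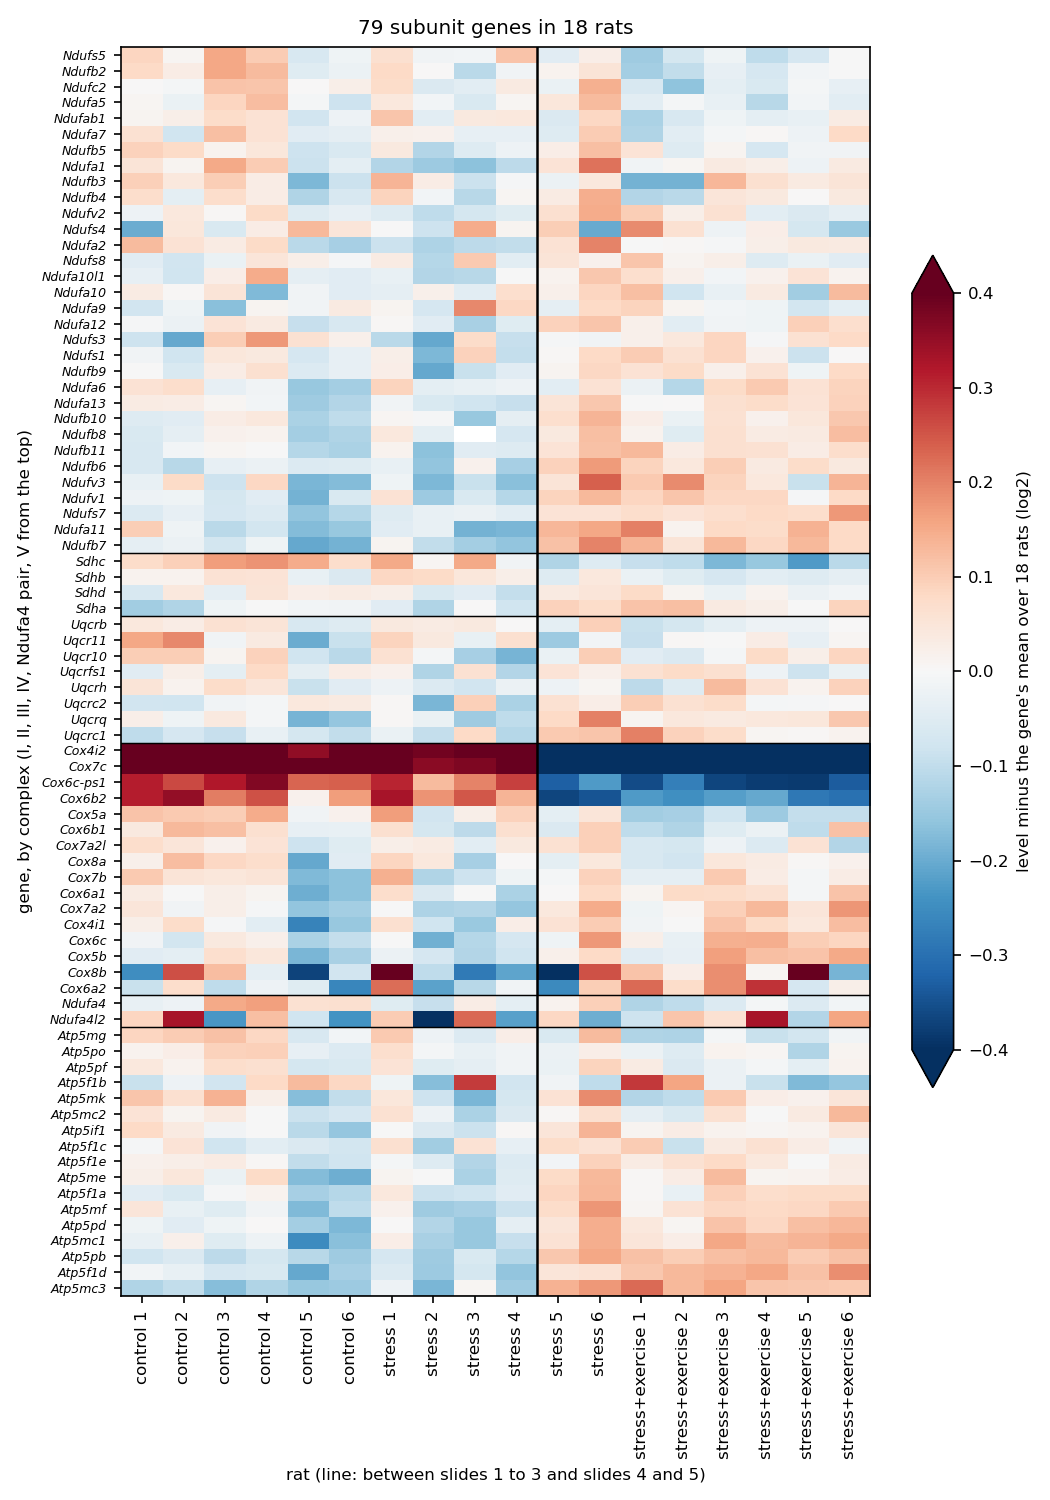
Level of 79 tested members in each rat minus the gene's mean over all 18 rats (log2; colours reach their limit at 0.4 in either direction), by complex, with a vertical line between slides 1 to 3 and slides 4 and 5. The 4 darkest bands are Cox4i2, Cox7c, Cox6c-ps1 and Cox6b2, which change colour at the line, between stress 4 and stress 5, and not between groups.

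With the slide set as a covariate the differences of the same genes shrank. No slide set held both control and exercised rats, so in this fit the comparison runs through the stress group, with 4 rats on 1 side and 2 on the other, which also differ in scan day. Exercised rats then differed from control by -0.09 in Cox4i2 (SE 0.09), -0.13 in Cox7c (SE 0.08), -0.14 in Cox6c-ps1 (SE 0.07) and 0.11 in Cox6b2 (SE 0.09). Of 80 members 0 passed, against 0.00766% of all tested genes. An unadjusted p under 0.05 (limma) was seen in 6 of the 80 members and in 1239 of 13052 tested genes. These 6 were Ndufa1 (-0.29, adjusted p = 0.289), Ndufa4 (-0.22), Ndufa2 (-0.22), Ndufv2 (-0.17), Ndufa5 (-0.15) and Ndufc2 (-0.16), all lower. A negative difference was seen in 63 of 80 members and in 6779 of 13052 genes, with medians of -0.05 and -0.01. By complex the median was -0.06 for I, -0.06 for II, -0.05 for III, -0.04 for IV and -0.04 for V. Wheel running and slide set cannot be told apart in the comparison with control.

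**Figure D4:**
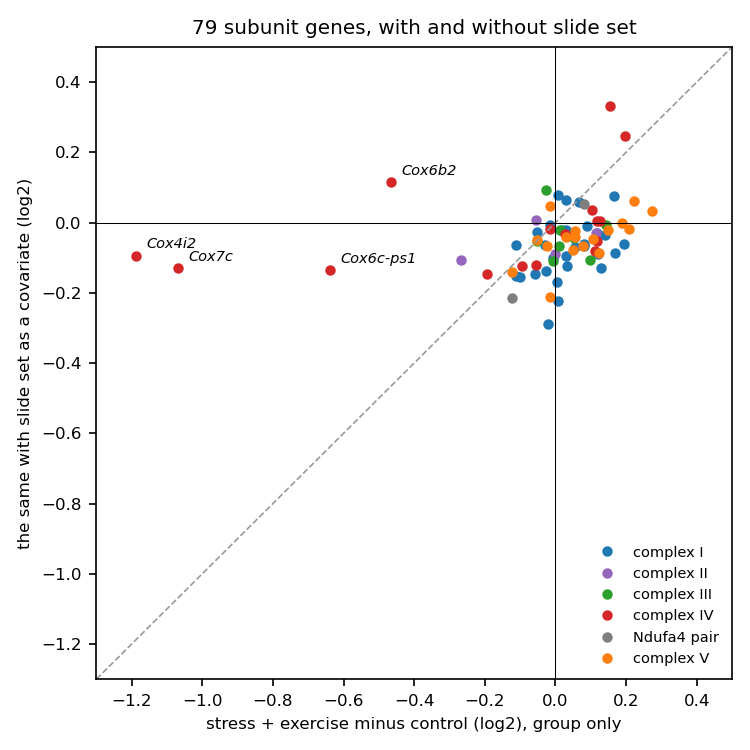
Difference between exercised and control rats (log2) for 79 tested members, with group as the only term on the horizontal axis and the slide set added on the vertical axis; the dashed line marks equal values. Cox4i2 and Cox7c, at -1.19 and -1.07 on the horizontal axis, lie at -0.09 and -0.13 on the vertical axis.

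Scan day split the groups in another way, since each day held rats of all 3 groups. Within day 1 (4 control and 2 exercised rats) Cox4i2 differed by -1.21 and Cox7c by -1.05, and within day 2 (2 and 4 rats) by -1.23 and -1.13, close to the values over all rats. Ndufa4 differed by -0.22 on day 1 and by -0.01 on day 2. Within day 1 11 members passed, against 17.3% of all tested genes, and all 11 were among the 18 that changed over all rats. Within day 2 12 passed, against 18% of all tested genes, and 9 of them were among the 18. The rats of each day were also part of the comparison over all rats, so this overlap was partly given in advance. On each day control rats lay on slides 1 to 3 and exercised rats on slides 4 and 5, so slide set and group stayed together. With slide as a random block 5 of 80 passed, against 4.24% of all tested genes, among them Cox4i2, Cox7c, Cox6c-ps1 and Atp5mc3.

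Second probes of the same gene existed for 21 members, in 26 pairs of the brightest and another tested probe. For exercised rats against control the 2 differences had the same sign in 16 of 26 pairs and lay a median of 0.10 apart. Both probes passed in 2 pairs, 1 alone in 7, and in 1 of the former the directions were opposite. That pair was Atp5pd, with 0.15 for the brightest and -0.12 for the other probe (adjusted p = 0.0247). Atp5mg fell by both its probes, by 0.12 and by 0.23 (adjusted p = 0.000732).

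The widest gap was that of Uqcrq, which encodes a small subunit of complex III next to cytochrome b. Its brightest probe differed by 0.10 and its other probe by -1.05 (SE 0.19, adjusted p = 0.00114). The other probe was at -0.71 to -0.58 in control, -0.86 to -0.58 in stress rats 1 to 4, -1.91 to -1.57 in stress rats 5 and 6, and -2.03 to -1.41 in exercised rats. It thus followed the slide set as Cox4i2 and Cox7c did, while the brightest probe had stress rats 5 and 6 at 6.82 to 6.94, above the 6.60 to 6.75 of the other stress rats. Cox5b (0.13 against -0.20), Atp5mc2 (0.03 against 0.26) and Cox5a (-0.19 against 0.00) also depended on the probe.

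**Figure D5:**
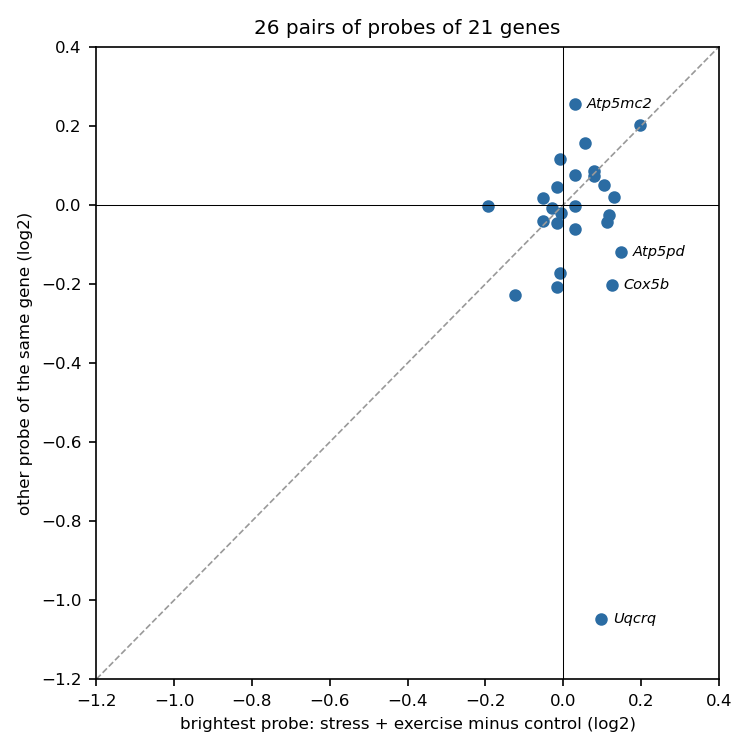
Difference between exercised and control rats (log2) by the brightest probe (horizontal axis) and another probe of the same gene (vertical axis), for 26 pairs of probes of 21 members; the dashed line marks equal values. Most pairs lie within 0.2 of 0 on both axes, and the other probe of Uqcrq lies at -1.05.

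The remaining 59 members had 1 tested probe each, Cox4i2, Cox7c and Cox6b2 included, so their falls rest on single probes. In the table of rat genes used for names, 43 members had at least 1 named pseudogene or like gene, with 11 each for Atp5mg and Ndufb4, 6 for Atp5mc2, 4 for Cox7c and 0 for Cox4i2, Cox6b2 and Uqcrq. Values of members with such copies are uncertain where a probe also binds a copy, which could not be checked without probe positions.

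Genes that work around the complexes rose more often than they fell in the same comparison, as did all tested genes. Most of the rises in these lists did not pass without scaling. Of 37 assembly factors 12 rose and 2 fell in exercised rats against control, with a median of 0.09, where 18.1% of all tested genes rose, 9.84% fell and the median was 0.05. Without scaling 0 of the 37 rose and 2 fell, where 404 of 13052 tested genes rose and 1285 fell. With quantile normalization 12 rose and 3 fell, where 2606 of all tested genes rose and 1269 fell. The rises included Sco1 (0.27, adjusted p = 0.00387), which delivers copper to cytochrome oxidase, the copper chaperone Cox17 (0.19), Cox18 (0.21), Taco1 (0.34), which helps translate a mitochondrial subunit of complex IV, Uqcc1 (0.20) of complex III and Ecsit (0.14) and Timmdc1 (0.14) of complex I. Cox16 (-0.19) and Coa3 (-0.14), both of complex IV, fell. Of 18 genes for electron carriers and quinone synthesis 5 rose and 0 fell, among them Coq6 (0.30, adjusted p = 0.00187) and Coq9 (0.20).

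The citrate cycle genes and the regulators were called about as often as all tested genes. Called in either direction were 28.6% of the citrate cycle genes, 21.4% of the regulators and 42.9% of the exchange genes, against 28% of all tested genes. Of 14 citrate cycle genes 4 rose, among them Idh3b (0.25), Idh3g (0.19) and Dlst (0.19), and 0 fell. Of 14 regulators of mitochondrial gene expression 3 rose: Polrmt, the mitochondrial RNA polymerase (0.39, adjusted p = 0.00100), Pprc1 (0.24) and the deacetylase Sirt3 (0.17). Ppargc1a, the coactivator known for its induction by exercise in muscle, differed by -0.08 and Tfam, which packages mitochondrial DNA, by -0.03, and neither passed. Of 7 genes that exchange ADP, phosphate and creatine phosphate, Ckmt1 (0.35) and Vdac1 (0.22) rose and the phosphate carrier Slc25a3 fell (-0.18). Medians were 0.01 for the carrier genes, 0.05 for the citrate cycle, 0.05 for the regulators and 0.10 for the exchange genes. Without scaling 1 carrier gene, 0 citrate cycle genes, 1 regulator and 1 exchange gene rose, and 1 exchange gene fell. Of all 13052 tested genes 404 then rose and 1285 fell.

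Genes of these lists also differed between the slides within stress, where 9.65% of all tested genes were higher on slide 4 and 6.81% lower. Between the slides within stress 7 of 37 assembly factors, 4 of 18 carrier genes, 2 of 14 citrate cycle genes, 2 of 14 regulators and 4 of 7 exchange genes were higher on slide 4, and 0 in each list were lower. Sco1 differed by 0.29 there, Coq6 by 0.29, Polrmt by 0.35 and Ckmt1 by 0.35. With the slide set as a covariate the difference between exercised and control rats was -0.03 for Sco1, 0.01 for Coq6, 0.04 for Polrmt and 0.00 for Ckmt1. Against stress, Coq6 was the 1 gene of the 5 lists that passed (0.23, adjusted p = 0.0437), and between stress and control 0 passed in each list.

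Markers of neighbouring tissue varied widely between rats. The summed level of choroid plexus markers ran from 2.09 to 187 times the 75th percentile over the 18 rats, that of pituitary markers from 0.403 to 45.1 and that of thalamic markers from 1.64 to 17.6. Control and exercised ranges overlapped for each of these sums. Single markers moved all the same. In exercised rats against control 18.1% of all tested genes rose and 9.84% fell. Between the slides within stress 9.65% were higher on slide 4 and 6.81% lower. Of 5 choroid plexus markers Aqp1 fell in exercised rats against control (-0.66, adjusted p = 0.0307) and was lower on slide 4 within stress (-1.11, adjusted p = 0.000344). Of 3 pituitary markers 2 were lower on slide 4, Lhb (-0.43, adjusted p = 0.00909) and Cga (-11.0, adjusted p = 0.0152). The difference of Cga was thus far from that of Lhb. It compares 2 rats with 4, and its size is uncertain if the signal of Cga was near background in some of them. Of 6 microglial markers Tmem119 rose in exercised rats (0.29), while Cx3cr1 (-0.58, adjusted p = 0.0144) and Itgam (-0.38, adjusted p = 0.00516) fell, and the latter pair was also lower on slide 4 within stress (-0.77 and -0.34). Of 7 oligodendrocyte markers 3 rose in exercised rats, Mog (0.24), Mag (0.38) and Cnp (0.24), and 1 of them, Mag, was higher on slide 4 within stress (0.29). The microglial sum was 14.6 to 16.3 in control and 14.4 to 15.7 in exercised rats, and the oligodendrocyte sum 725 to 821 and 793 to 907. The part of these markers in the results on subunit genes was not tested. Of 8 neuronal markers Rbfox3 (0.17) and Nefl (0.39) rose in exercised rats and 0 fell. The neuronal sum was 107 to 122 in control, 102 to 121 in stress and 116 to 122 in exercised rats.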

How the data were processed

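Hypothalamic RNA of 18 rats was hybridised to Agilent 1-colour arrays. The deposited scanner files hold the processed signal, an intensity that Agilent Feature Extraction had corrected for background, per the file headers, which name version 12.1.0.3 (the submitters' processing notes name 9.1). The authors' matrix held the same intensity times 1 constant per array, 1.02 to 1.24.

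Control and outlier spots were left out, spots of a probe averaged, and log2 values taken minus each array's 75th percentile. Probes well above background on at least 5 of 6 arrays of a group were tested (31299). Of 45598 probes 21220 matched 1 rat symbol (GRCr8), 0 several and 24378 none. The brightest tested probe stands for a gene. Group was the only term of the fit in limma 3.58.1 (R 4.3.3), with moderated standard errors and two-sided p-values. The fit was tested on simulated data. Ndufb8 had 1 missing value (an outlier spot), and Cox8c was not tested. Named members are those that passed, the smallest p-values per complex and a preset set of core subunits. Members and lists were chosen with earlier results of these data known. Replicate numbers did not pair the rats (correlations -0.25 to 0.18). Some results are not reported here. Array positions are not given, since the design uses another build.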

Additional observations from a re-analysis of the deposited data

Results flagged for a closer look

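In groups of 6 rats, 9 of 239 sets of a member and a group held 1 rat far from the others by Dixon's test, where chance flags about 1 in 20. In control, rat 5 was low for Cox4i2 (2.82, the others 3.02 to 3.11) and for Ndufv1 (5.06, the others 5.18 to 5.23). In stress, rat 3 was high for Atp5f1b (4.01, the others 3.56 to 3.71). In exercised rats, Atp5me was high in rat 3 (7.50), Ndufs7 in rat 6 (4.05) and Uqcrq in rat 6 (6.85). Ndufa5 was low in exercised rat 4 (6.14), Ndufc2 in rat 2 (5.83) and Ndufv1 in rat 5 (5.25).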

How the results depend on the processing

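Shares of all tested genes are given above only for some of the settings below. A count without its share cannot be read as particular to the members. For stress against control the count of members that passed was 0 in all settings run except within scan day 1 (9). For exercised rats against stress (4), it was 7 with normexp on spot medians, 7 with the strict filter, 8 with scan day as a block, 23 within day 2 and 26 without both stress rats of slide 4. It was 0 with no filter, with the arrays of both groups only, with slide as a random block, the slide set, the slide set and day, the replicate block, within slides 4 and 5 and within day 1. Leaving out 1 rat gave 0 to 11. For exercised rats against control (18), it was 10 without scaling, 5 with slide as a random block, 11 within day 1 and 0 for the slide set, alone or with day, and 13 to 21 without 1 rat. The replicate block gave 12 there, and the numbers did not pair the rats. Between the slides within stress (16), it was 5 without scaling, 5 with the stress arrays only and 6 to 21 without 1 rat. Quantile normalization, the authors' matrix and the mean of a gene's probes kept each count within 1.5 times. With the slide set as a covariate the difference from control changed sign for Atp5pb (-0.0195), Atp5pd (-0.0225), Cox6b2 (0.115), Ndufb7 (-0.0608), Ndufv1 (-0.0355) and Uqcrc1 (-0.0064). With scan day added it did so for Atp5f1d (-0.0229), Atp5mc1 (-0.149), Atp5pb (-0.0501), Atp5pd (-0.115), Cox6b2 (0.0114), Ndufb7 (-0.129) and Ndufv1 (-0.0590). The cause was not tested. Normexp on spot medians and leaving out both stress rats of slide 4 were chosen after seeing the data. Normexp on spot means was not run, since the files used hold medians. With 6 arrays per group the number of arrays limits the precision.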
